A study of Mus musculus with 6 samples.

Results

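Genes of the integrated stress response and of the unfolded protein response were described in samples of sensory neurons. The samples were given a hairpin RNA against Uhrf1 or a control hairpin. The module was a fixed set of 43 of the 47643 gene identifiers in the files, listed by function with earlier results of these data known. It held 7 sensors, eIF2 kinases and eIF2 phosphatase subunits, 6 transcription factors, 14 targets of ATF4, and 16 targets of ATF6 and XBP1. All 43 were among the 15573 genes that passed the filter on low counts.

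The samples were neurons of dorsal root ganglia, the clusters of sensory nerve cells beside the spinal cord, from CD-1 mouse embryos at embryonic day 13. All samples were given a lentivirus, with 3 libraries in each group. The virus carried the control hairpin in the shControl group and the hairpin against Uhrf1 in the shUHRF1 group. Total RNA was depleted of ribosomal RNA and copied into cDNA with a SMARTer kit. The sources used here do not give the hairpin sequences, the promoter that drove them, the share of infected cells or the time from infection to harvest. Whether the libraries of a group came from separate cultures or animals is not stated either, so the p-values below rest on a spread between libraries that may be only technical.

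Cells slow protein synthesis under several kinds of stress by phosphorylating the initiation factor eIF2. The kinases are PERK (Eif2ak3), which senses unfolded protein in the endoplasmic reticulum (ER), and GCN2 (Eif2ak4), which senses uncharged tRNA, together with PKR and HRI. Phosphorylated eIF2 lowers general translation but raises that of the transcription factor ATF4, which drives genes of amino acid synthesis and uptake, of folate metabolism and of feedback on the pathway itself. The ER has a pair of further sensors. ATF6 is cut at the Golgi to release a transcription factor, and IRE1 (Ern1) splices the mRNA of Xbp1 so that it encodes the active factor; these raise ER chaperones and the machinery that removes misfolded protein. Read counts per gene show neither the splicing of Xbp1 nor the translation of Atf4. Setting targets of ATF4 beside targets of ATF6 and XBP1 therefore addressed which arm, if either, differed in mRNA between the groups.

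The libraries held 15599776 to 22382813 reads in genes, and the 43 members took 73415 to 130994 of them, or 0.445% to 0.585%. Levels are given in CPM, the read count of a gene scaled to the size of its library after TMM adjustment. Uhrf1 was near the detection limit, with 8, 6 and 5 reads in shControl replicates 1, 2 and 3 and 2, 1 and 5 reads in the shUHRF1 replicates. Its log2 fold change was -1.39 ± 0.62 (SE), and neither edgeR's quasi-likelihood test (adjusted p = 0.141) nor the exact permutation test (two-sided p = 0.2, smallest possible 0.1) separated the groups. The counts thus did not show at this depth whether the hairpin lowered its target. Sensory neuron markers, all 10 of which passed the filter, summed to 16340 to 18530 CPM in shControl and 12710 to 16510 CPM in shUHRF1, with 0 called higher and 1 lower. That was Tubb3, the neuronal tubulin, which fell from 5378 ± 144 to 3201 ± 692 CPM (SD, n = 3 in each group; log2 -0.75, adjusted p = 0.0168). Fibroblast markers summed to 6.733 to 9.422 CPM in shControl and 70.32 to 163.9 CPM in shUHRF1, with 7 of 7 tested markers called higher, and Lum and Twist1 at 0 in at least 1 shControl library. Satellite glia and Schwann cell markers summed to 341.3 to 417.6 CPM and 116.8 to 440.4 CPM, with 7 of 9 tested markers called higher and 1 lower, and Foxd3 at 0 in at least 1 shControl library. S100b and Mbp carried most of these sums, and Mbp was the marker called lower. The other 8 glial markers summed to 6.279 to 8.304 CPM in shControl and to 31.8 to 73.61 CPM in shUHRF1, a split made after the values were seen. Macrophage markers summed to 6.409 to 12.31 CPM and 14.91 to 35.33 CPM (3 of 7 tested called higher), and endothelial markers to 2.296 to 3.542 CPM and 4.086 to 4.887 CPM (1 of 3 tested called higher, with Cdh5 and Kdr at 0 in at least 1 shControl library). The part of these other cells in the results below was not tested. In bulk RNA, fewer cells of a type and less RNA per cell cannot be told apart.

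Of the 43 members 10 changed between the groups, a share close to that of all tested genes. Genes were called at an adjusted p below 0.05 over all 15573 tested genes (edgeR's quasi-likelihood test, Benjamini-Hochberg adjustment). By this rule 3 members were higher with shUHRF1 (Eif2ak4, Aldh1l2 and Dnajb9) and 7 were lower (Atf5, Slc7a5, Slc3a2, Slc7a1, Mthfd2, Sel1l and Edem1). That is 6.98% and 16.3% of the members, beside 11.6% called higher and 12.4% called lower among all tested genes. Among tested genes whose mean reached 16 CPM, as did that of 37 members, 9.29% were called higher and 19.9% lower, and the members at that level had 8.11% and 18.9%. The shares were near this background. Over all tested genes the calls were 1807 higher and 1928 lower, and 2512 and 1378 with upper-quartile factors, which gave the same 3 and 7 members. In 4 members every shUHRF1 library lay above every shControl library, in 13 every one lay below, and in 26 the groups overlapped. The corresponding shares of all tested genes were 21.7% above and 22.3% below. The median log2 fold change of the members was -0.24, beside 0.017 over all tested genes and -0.08 over those whose mean reached 16 CPM. Leaving out single libraries moved the member counts to between 0 and 3 higher and between 2 and 9 lower, and 8 of the 10 calls were lost in at least 1 of these fits.

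**Figure D1:**
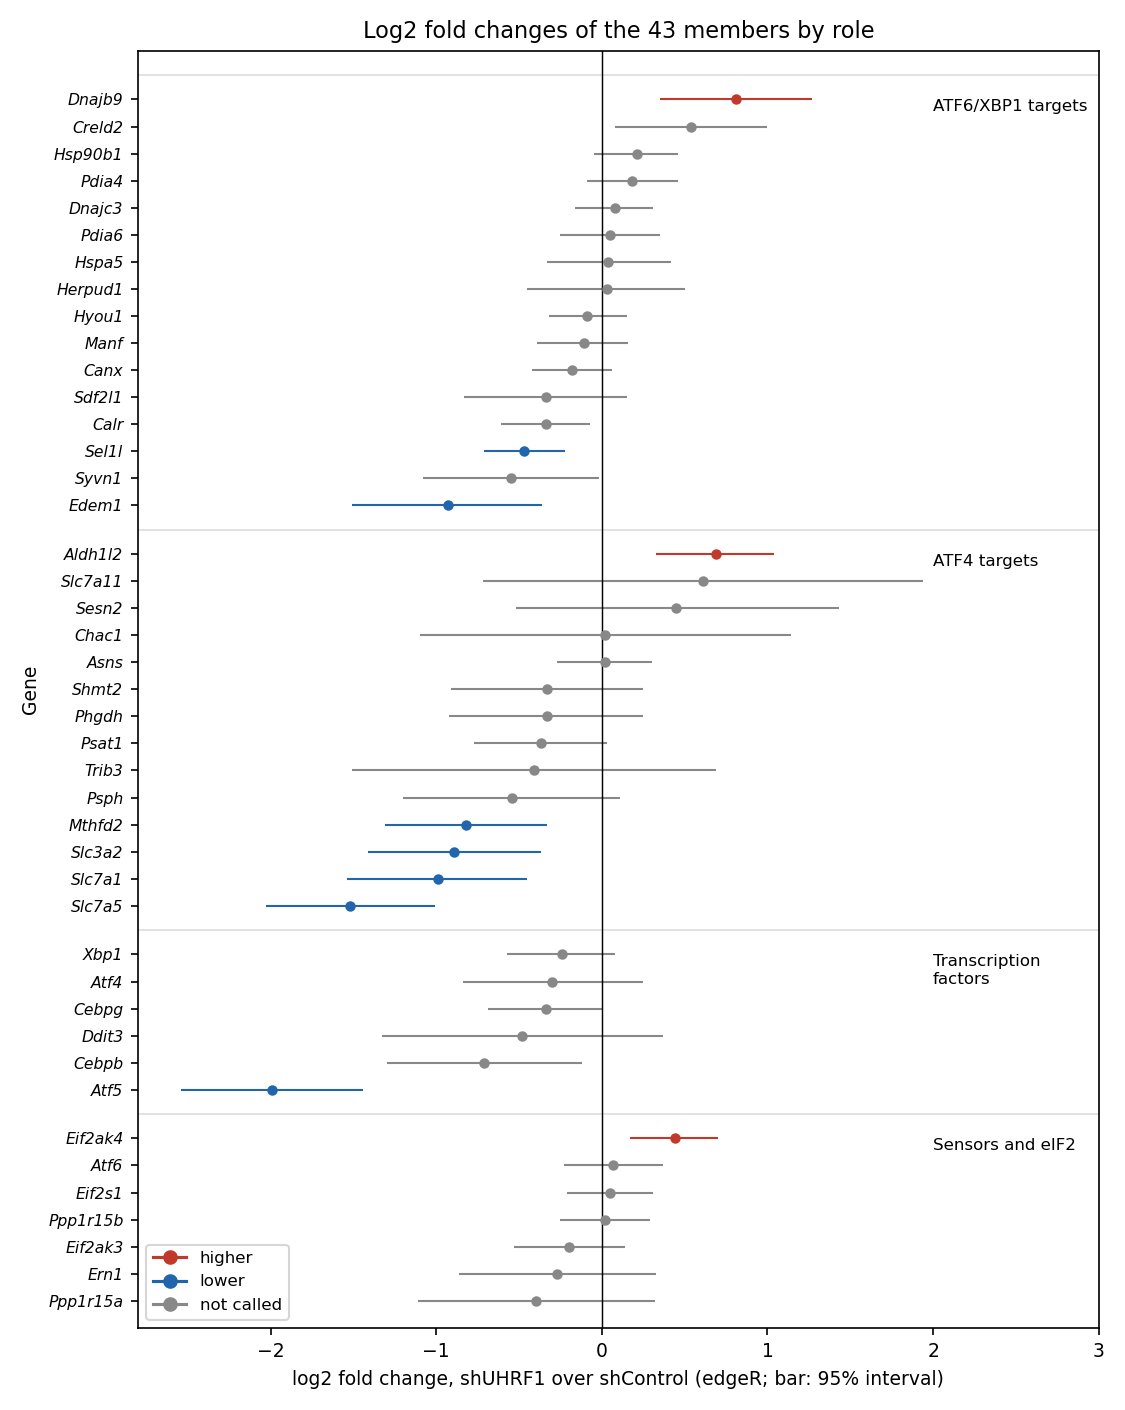
Log2 fold change (shUHRF1 over shControl, points) of each of the 43 members with its 95% confidence interval (lines), grouped by role, with called members marked. Of the members called, 3 lie above 0 and 7 below, with Atf5 at -1.99 the lowest.

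Among the sensors and eIF2 kinases, the GCN2 gene was called and the sensors of ER stress were not. Eif2ak4 (chromosome 2, 118388618 to 118475234, plus strand, GRCm38) was at 21.89, 21.82 and 20.47 CPM in shControl replicates 1 to 3 and at 30.13, 28.62 and 28.14 CPM in the shUHRF1 replicates. All shUHRF1 libraries lay above all shControl libraries, and the spread within each group was small. The rise was 1.35-fold (log2 0.44 ± 0.11 SE, adjusted p = 0.0283). This call was the least secure of the 10, since leaving out any of the 6 libraries raised the adjusted p to between 0.0532 and 0.117, and testing without the low-count filter gave 0.116.

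Eif2ak3, the PERK gene, was at 62.43, 53.6 and 69.98 CPM in shControl and at 62.19, 48.75 and 51.39 CPM in shUHRF1, with overlapping groups (log2 -0.20, 95% interval -0.53 to 0.14). For Ern1 the means were 16.27 ± 3.62 and 13.51 ± 4.02 CPM (SD, n = 3 in each group), and the interval was -0.86 to 0.33. Atf6 itself had 50.67 ± 4.25 and 53.26 ± 6.48 CPM (interval -0.23 to 0.37). Eif2s1 encodes the alpha subunit of eIF2, the site of phosphorylation, and its interval was -0.21 to 0.31 around 0.05. The subunits that direct the phosphatase to eIF2 also overlapped between groups. Ppp1r15a (GADD34), the stress-induced form, had 30.26 ± 5.41 and 22.97 ± 10.9 CPM (log2 -0.40, adjusted p = 0.394), and without shUHRF1 replicate 3 it was called lower (-0.87, adjusted p = 0.0374). Ppp1r15b (CReP), the constitutive form, had 73.4 ± 1.63 and 74.52 ± 8.76 CPM, with 11.4% of its exonic bases overlapping Gm26616 on the opposite strand. The intervals of Eif2s1, Ppp1r15b and Atf6 exclude a 1.5-fold difference in either direction, while those of Ppp1r15a and Ern1 do not.

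All 6 transcription factors had a negative log2 fold change, with a median of -0.41, but only Atf5 was called. Over all tested genes 8007 of 15573 were positive, with a median of 0.017, or -0.08 for those whose mean reached 16 CPM. The groups overlapped in 4 of the 6 and shUHRF1 lay below in 2, beside 22.3% below over all tested genes. Atf5 encodes a bZIP factor whose translation, like that of ATF4, is raised when eIF2 is phosphorylated, and whose gene is a known ATF4 target. It lies on chromosome 7 (44812256 to 44816658, minus strand) and was at 166.1, 105.0 and 184.5 CPM in shControl replicates 1 to 3 and at 37.5, 30.68 and 46.35 CPM in shUHRF1. The highest shUHRF1 library lay far below the lowest shControl library. The fall was 3.98-fold (log2 -1.99 ± 0.24 SE, adjusted p = 0.00168), the largest in size of the 43, and it was called in all 14 alternative fits (log2 -2.21 to -1.84). Of its exonic bases, 4.1% overlap exons of Nup62 and Il4i1 on the opposite strand, whose reads cannot be told apart there without the strand setting of the counting.

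Atf4 was at 463.0, 368.2 and 376.1 CPM in shControl and at 440.8, 218.6 and 324.4 CPM in shUHRF1. Its groups overlapped, with shUHRF1 replicate 1 inside the shControl range and replicates 2 and 3 below it (log2 -0.30 ± 0.24 SE, adjusted p = 0.412). Ddit3, which encodes the bZIP factor CHOP, was at 37.28, 56.9 and 58.11 CPM in shControl and at 33.45, 18.43 and 57.06 CPM in shUHRF1, again overlapping (log2 -0.48 ± 0.37 SE, adjusted p = 0.386). Xbp1 was at 62.78, 79.3 and 75.38 CPM and at 54.69, 58.82 and 70.18 CPM (log2 -0.24 ± 0.14 SE, adjusted p = 0.249), so shUHRF1 replicate 3 lay inside the shControl range. Among the C/EBP factors, which dimerize with ATF4, Cebpb was at 8.072, 8.416 and 11.96 CPM in shControl and at 6.242, 4.181 and 6.975 CPM in shUHRF1. Every shUHRF1 library was lower, but the adjusted p was 0.08 (log2 -0.71), and 20.7% of its exonic bases overlap Tmem189 on the opposite strand. A fit with the replicate number as a block called it lower (log2 -0.71, adjusted p = 0.0295). Cebpg had 57.59 ± 7.55 and 45.43 ± 6.47 CPM (log2 -0.34, interval -0.69 to 0.00).

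Among the 14 targets of ATF4, Aldh1l2 was called higher and Slc7a5, Slc3a2, Slc7a1 and Mthfd2 lower, beside 11.6% and 12.4% of all tested genes. In 1 of the 14 the shUHRF1 libraries lay above, in 6 below, and in 7 the groups overlapped, beside 21.7% above and 22.3% below over all tested genes. The median log2 fold change was -0.35, beside 0.017 over all tested genes and -0.08 over those whose mean reached 16 CPM. ATF4 with a C/EBP partner binds the C/EBP-ATF response element (CARE), searched here as TGATGNAA on both strands in the 250 bases before each RefSeq gene start. RefSeq windows of the GRCm38.p6 table were matched for 37 of the 43 members, and Aldh1l2, Atf6, Hyou1, Manf, Ppp1r15b and Slc7a5 had no entry. The motif was found for 4 members, Asns, Chac1, Slc7a11 and Herpud1. It was found for 3.91% of the 27025 genes with a window, and in 3.45% of all 32851 windows. These stretches are shown, with the motif in capitals, because they let the motif be read beside the values of the genes that carry it.
Asns, chr6:7693215-7693242, minus strand: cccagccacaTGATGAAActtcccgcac
Chac1, chr2:119351039-119351066, minus strand: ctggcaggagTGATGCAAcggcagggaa
Slc7a11, chr3:50443662-50443689, minus strand: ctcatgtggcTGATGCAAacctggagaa
Slc7a11, chr3:50443643-50443670, plus strand: ggctgcatgaTGATGCAAattctccagg
Herpud1, chr8:94386307-94386334, minus strand: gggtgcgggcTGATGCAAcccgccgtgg
Of these 4 genes edgeR called 0, with 0 at an unadjusted p below 0.05, and DESeq2 called 0. Their log2 fold changes ran from 0.02 to 0.61. In Asns the motif ended 16 bases before the gene start. A match describes letters in the window and does not show binding. The lack of a match does not exclude an element outside the 250 bases. The called targets Slc7a5 and Aldh1l2 had no window and could not be searched.

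Of the 4 amino acid transporter genes of the list 3 were called lower. Over all tested genes 12.4% were called lower, and 19.9% of those whose mean reached 16 CPM. Among further ATF4-linked genes, the transporters Slc1a4, Slc1a5, Slc6a9 and Slc38a2 had log2 fold changes of -0.10, 0.50, -0.49 and -0.01 and were not called. They were named after their values were seen. Slc7a5 encodes LAT1, the light chain that carries large neutral amino acids such as leucine, and lies on chromosome 8 (121881150 to 121907694, minus strand). It was at 338.0, 311.1 and 409.5 CPM in shControl replicates 1 to 3 and at 158.1, 86.32 and 125.5 CPM in shUHRF1. No shUHRF1 library came near the lowest shControl library. The fall was 2.86-fold (log2 -1.52 ± 0.22 SE, adjusted p = 0.00345) and was called in all 14 alternative fits, with log2 fold changes of -1.74 to -1.34. Slc3a2, the heavy chain that pairs with LAT1 and with the cystine transporter, was at 158.0, 158.9 and 219.7 CPM and at 121.0, 68.19 and 100.1 CPM. Its groups did not overlap, and the fall was 1.85-fold (log2 -0.89 ± 0.22 SE, adjusted p = 0.025). Without shControl replicate 3 the adjusted p was 0.0897, and without shUHRF1 replicate 3 it was 0.0677. Slc7a1, which encodes the cationic amino acid transporter CAT1 for arginine and lysine, was at 475.2, 342.5 and 599.5 CPM in shControl and at 284.8, 178.8 and 248.1 CPM in shUHRF1. These groups did not overlap either, although the shControl libraries differed widely among themselves (472.4 ± 128 CPM, SD, n = 3). The fall was 1.99-fold (log2 -0.99 ± 0.24 SE, adjusted p = 0.0204), and leaving out shControl replicate 1, shControl replicate 3 or shUHRF1 replicate 3 gave adjusted p values of 0.0565, 0.0728 and 0.0593. Slc7a11, the cystine light chain xCT, went with none of these. It was at 6.33, 5.244 and 7.031 CPM in shControl and at 15.85, 2.061 and 10.32 CPM in shUHRF1, so that shUHRF1 replicate 2 lay below all shControl libraries and replicates 1 and 3 above them (log2 0.61, interval -0.72 to 1.94). Without shUHRF1 replicate 2 it was called higher (log2 1.05, adjusted p = 0.0206).

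The members of mitochondrial folate metabolism were called in opposite directions. Mthfd2, a methylenetetrahydrofolate dehydrogenase, was at 133.6, 135.5 and 147.7 CPM in shControl and at 96.68, 52.11 and 86.6 CPM in shUHRF1. All shUHRF1 libraries were lower, and the fall was 1.77-fold (log2 -0.82 ± 0.21 SE, adjusted p = 0.0271). Aldh1l2, which oxidizes formyl-tetrahydrofolate and yields NADPH, was at 96.52, 96.65 and 119.6 CPM in shControl and at 186.4, 136.4 and 180.3 CPM in shUHRF1. All shUHRF1 libraries were higher here, and the rise was 1.61-fold (log2 0.69 ± 0.16 SE, adjusted p = 0.0168). Exons of D10Wsu102e on the opposite strand cover 14.1% of its exonic bases. The call of Mthfd2 was lost without any 1 of the shControl libraries or without shUHRF1 replicate 3 (adjusted p = 0.0619, 0.0559, 0.0893 and 0.0581). That of Aldh1l2 was lost when shControl replicate 1, replicate 2 of the same group or shUHRF1 replicate 3 was left out (adjusted p = 0.0734, 0.0581 and 0.064). Shmt2, the serine hydroxymethyltransferase of the same compartment, had 63.84 ± 6.72 and 50.72 ± 18.7 CPM and was not called (log2 -0.33).

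Genes of serine and asparagine synthesis were not called with all 6 libraries. Asns, the asparagine synthetase and the ATF4 target with the highest level, was at 483.6, 522.7 and 505.5 CPM in shControl and at 566.4, 443.4 and 519.4 CPM in shUHRF1, and its interval of -0.27 to 0.30 excludes a 1.5-fold difference in either direction. In the serine pathway, Phgdh, Psat1 and Psph had log2 fold changes of -0.33, -0.37 and -0.54. Psat1 was at 240.2, 253.0 and 264.8 CPM and at 226.5, 143.0 and 216.5 CPM, and Psph at 19.63, 19.36 and 18.61 CPM and at 18.55, 7.596 and 13.27 CPM. For Psat1 and Psph all shUHRF1 libraries lay below all shControl libraries, in both by a small margin for replicate 1, and the adjusted p values were 0.164 and 0.207. Exons of Cct6a on the opposite strand cover 10.4% of the exonic bases of Psph. Without shUHRF1 replicate 1, Phgdh and Psph were called lower (log2 -0.66, adjusted p = 0.0469, and log2 -0.88, adjusted p = 0.039).

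The feedback and stress-induced targets of ATF4 varied widely between the shUHRF1 libraries. Chac1, which degrades glutathione and is among the genes most strongly induced by ATF4, was at 56.91, 42.27 and 61.13 CPM in shControl and at 96.59, 18.55 and 47.37 CPM in shUHRF1. The shUHRF1 libraries thus spanned a range that enclosed all shControl libraries, and the interval of the log2 fold change, -1.10 to 1.14, excluded little. Trib3, a pseudokinase that restrains ATF4 and CHOP, was at 7.491, 4.532 and 8.131 CPM and at 7.409, 1.708 and 6.006 CPM. Sesn2, which couples leucine to mTORC1, was at 18.06, 16.12 and 21.43 CPM and at 44.28, 11.54 and 20.1 CPM. In each of these 3 genes shUHRF1 replicate 1 was the highest and replicate 2 the lowest of the shUHRF1 libraries.

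**Figure D2:**
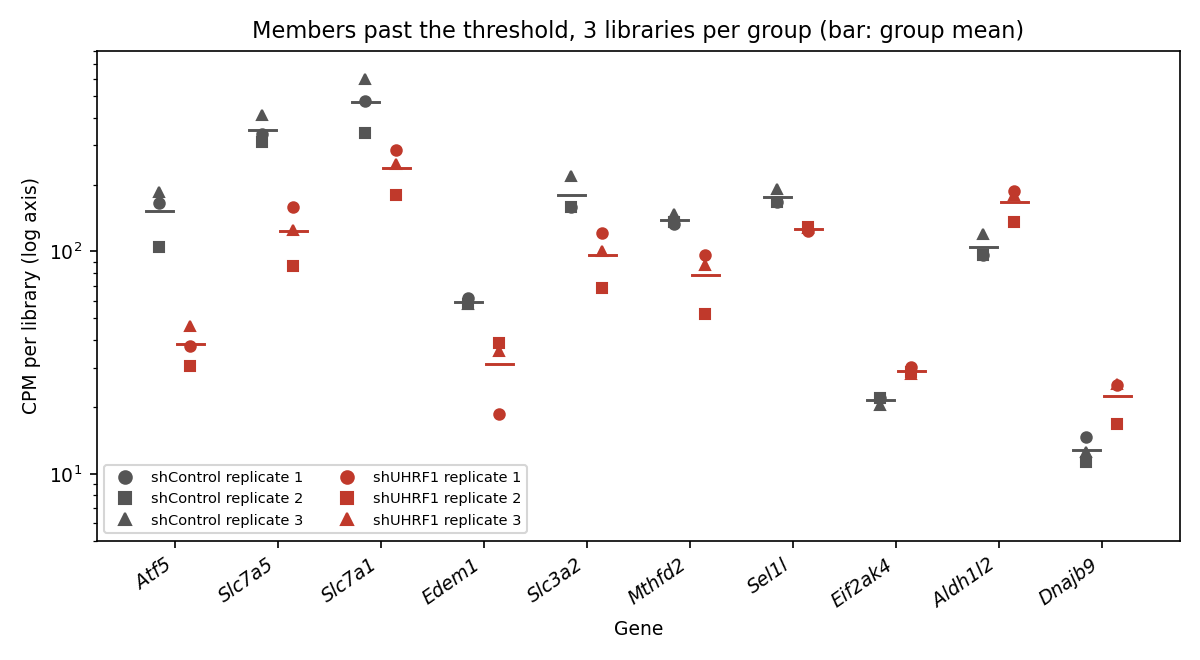
CPM (log axis) of the 10 called members in each library, shControl in grey and shUHRF1 in red, with a symbol for each replicate number and a bar at the group mean. In each of the 10 genes the groups do not overlap, and in Atf5, Slc7a5, Slc3a2, Slc7a1, Mthfd2, Aldh1l2 and Dnajb9 shUHRF1 replicate 2 is the lowest of its group.

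The order of the shUHRF1 libraries was the same in all 14 genes listed here as ATF4 targets. In 14 of 14, replicate 1 was above replicate 3 and replicate 3 above replicate 2, a pattern noticed after the values were seen. The same order held in 2 of 16 ATF6 and XBP1 targets and in 3916 of 15573 tested genes (25.1%). Replicate 2 of shUHRF1 was the lowest of all 6 libraries for 13 of 14 ATF4 targets, for 3 of 16 ATF6 and XBP1 targets, and for 15.9% of tested genes. The median log2 difference between shUHRF1 replicates 1 and 2 was 0.95 over the ATF4 targets, -0.06 over the ATF6 and XBP1 targets and 0.01 over all tested genes. The aminoacyl-tRNA synthetases, enzymes that charge tRNA and that ATF4 also drives, had the order in 12 of 16, and other ATF4-linked genes in 10 of 23. It was not limited to such lists, and held in 6 of 9 further eIF2 kinase, eIF2 and eIF2B genes, in 4 of the 7 sensor and eIF2 genes of the module, in 3 of 7 further sensors and site proteases and in 4 of 10 mitochondrial chaperones and proteases. It held in 1 of the 6 transcription factors. Atf5, a known ATF4 target listed among these factors, did not have it. Its levels were 37.5, 30.68 and 46.35 CPM in shUHRF1 replicates 1, 2 and 3. The order held in 2 of 17 further ER folding genes and in 2 of 14 genes of ER-associated degradation. It held in 2 of 16 translocon genes and in 2 of 14 heat shock genes. Within shControl, replicate 2 was the lowest library for 8 of 14 ATF4 targets, beside 38.4% of tested genes. Reads outside annotated genes made up 8.58%, 14.1% and 8.43% of the entries of shControl replicates 1, 2 and 3. They made up 9.97%, 17.2% and 11.1% of the entries of shUHRF1 replicates 1, 2 and 3. The glial marker sums were 116.8, 440.4 and 330.1 CPM in the same libraries (31.8, 73.61 and 59.62 CPM without S100b and Mbp), the fibroblast sums 70.32, 125.3 and 163.9 CPM, and the neuron sums 12710, 16510 and 16390 CPM. The part of these values in the order was not tested.

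**Figure D3:**
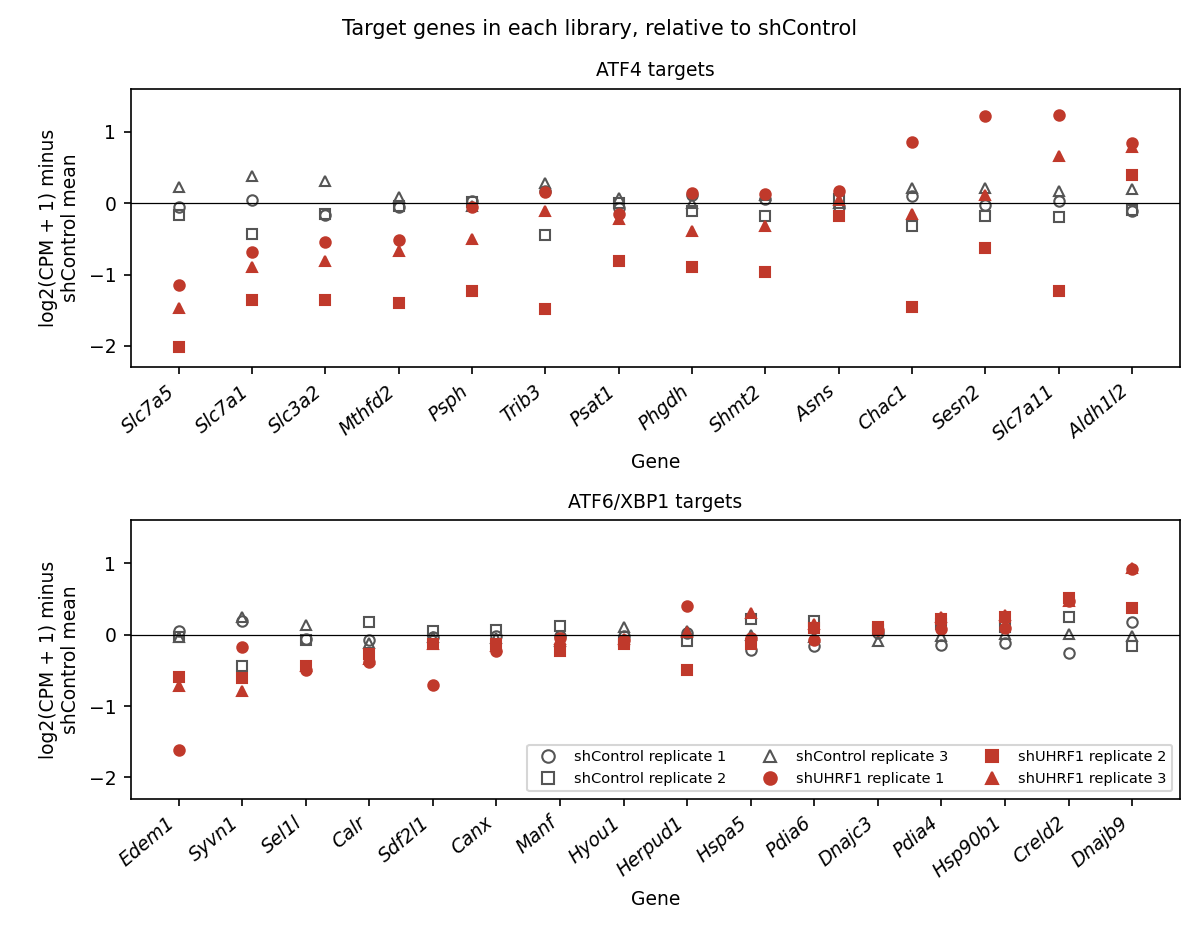
Level of each ATF4 target (top) and each ATF6 or XBP1 target (bottom) in every library, as log2(CPM + 1) minus the gene's mean over the shControl libraries, with open markers for shControl and filled markers for shUHRF1. In all 14 ATF4 targets shUHRF1 replicate 1 lies above replicate 3 and replicate 3 above replicate 2, an order seen in 2 of 16 ATF6 or XBP1 targets.

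Of the 16 targets of ATF6 and XBP1, Dnajb9 was called higher and Sel1l and Edem1 lower, beside 11.6% and 12.4% of all tested genes. The median log2 fold change was -0.03. The groups did not overlap in 2 (shUHRF1 above) and 5 (shUHRF1 below) of the 16, beside 21.7% and 22.3% of all tested genes. The ER stress response element (ERSE), bound by ATF6 with NF-Y, was searched as CCAAT, any 9 bases and CCACG on both strands of the same windows. It was found for 8 members, all of them in this group, for 0.13% of all genes with a window and in 0.113% of all windows. The core of the unfolded protein response element (UPRE), bound by XBP1 and searched as TGACGTGG, was found for 0 members. It was found for 0.603% of genes with a window and in 0.563% of windows. The ERSE stretches are shown because they mark the members whose promoters share this sequence, with the element in capitals.
Hspa5, chr2:34772020-34772048, plus strand: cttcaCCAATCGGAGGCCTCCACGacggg
Calr, chr8:84847070-84847098, plus strand: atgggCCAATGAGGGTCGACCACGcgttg
Canx, chr11:50325795-50325823, minus strand: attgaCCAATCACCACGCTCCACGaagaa
Hsp90b1, chr10:86705633-86705661, minus strand: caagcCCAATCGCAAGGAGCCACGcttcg
Hsp90b1, chr10:86705528-86705556, plus strand: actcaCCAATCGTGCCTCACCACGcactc
Pdia6, chr12:17266486-17266514, plus strand: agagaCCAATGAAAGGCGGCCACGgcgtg
Dnajc3, chr14:118937822-118937850, plus strand: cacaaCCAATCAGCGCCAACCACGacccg
Creld2, chr15:88819515-88819543, minus strand: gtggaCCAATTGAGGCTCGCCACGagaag
Syvn1, chr19:6046527-6046555, plus strand: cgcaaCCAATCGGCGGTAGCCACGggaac
Of these 8 genes edgeR called 0, with 3 (Calr, Creld2 and Syvn1) at an unadjusted p below 0.05, and DESeq2 called Calr. Their log2 fold changes ran from -0.55 to 0.54 with a median of 0.04.

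Hspa5 encodes BiP, the main ER chaperone and the usual readout of the unfolded protein response. It was at 258.0, 348.4 and 299.9 CPM in shControl and at 289.1, 273.1 and 371.1 CPM in shUHRF1. The groups overlapped, and the log2 fold change of 0.04 ± 0.16 (SE) had a 95% interval of -0.33 to 0.42, which excludes a 1.5-fold difference in either direction. Hsp90b1 (GRP94), another abundant chaperone, had 229.9 ± 18.1 and 265.1 ± 16.9 CPM (log2 0.21, adjusted p = 0.22), and 10.3% of its exonic bases overlap 1810014B01Rik on the opposite strand. The disulfide isomerases Pdia4 and Pdia6 and the co-chaperones Dnajc3 and Hyou1 had log2 fold changes between -0.09 and 0.18, and neither edgeR nor DESeq2 called any of the 4. Manf, a secreted ER-stress factor, was at 41.36 ± 3.3 and 38.2 ± 2.76 CPM. Creld2, which is likewise secreted, was at 4.82, 7.251 and 5.979 CPM in shControl and at 8.622, 8.95 and 8.621 CPM in shUHRF1, above in every library but not called (log2 0.54, adjusted p = 0.0857).

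Dnajb9 was the only member of this group that was called higher. It encodes ERdj4, a BiP co-chaperone that restrains IRE1 and is strongly driven by XBP1, and lies on chromosome 12 (44205559 to 44210326, minus strand). It was at 14.58, 11.26 and 12.53 CPM in shControl and, with no overlap, at 25.06, 16.72 and 25.33 CPM in shUHRF1. The rise was 1.75-fold (log2 0.81 ± 0.20 SE, adjusted p = 0.0232). Leaving out shControl replicate 2, shControl replicate 3, shUHRF1 replicate 1 or shUHRF1 replicate 3 gave adjusted p values of 0.0749, 0.0877, 0.0532 and 0.0849.

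The lectin chaperones that bind glycoproteins were somewhat lower in every shUHRF1 library, as were 22.3% of all tested genes, and edgeR called neither. Canx was at 1044, 1111 and 1029 CPM in shControl and at 905.2, 964.0 and 946.0 CPM in shUHRF1 (log2 -0.18, adjusted p = 0.256). Calr was at 373.1, 443.1 and 362.5 CPM and at 299.8, 323.8 and 308.6 CPM (log2 -0.34, adjusted p = 0.0719), and DESeq2 called it lower (adjusted p = 0.0461). Sdf2l1, a component of the BiP chaperone cycle, had 9.957 ± 0.347 and 7.891 ± 1.89 CPM, also without overlap and not called (adjusted p = 0.29).

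ER-associated degradation moves misfolded proteins to the cytosol, where they are destroyed by the proteasome. Sel1l, the adaptor of the HRD1 ubiquitin ligase, lies on chromosome 12 (91806043 to 91849157, minus strand). It was at 167.7, 166.4 and 191.4 CPM in shControl and at 123.2, 129.2 and 128.1 CPM in shUHRF1. The shUHRF1 libraries lay close together and all below shControl, and the fall was 1.38-fold (log2 -0.47 ± 0.11 SE, adjusted p = 0.0168). Edem1, which helps to select misfolded glycoproteins for degradation, lies on chromosome 6 (108828641 to 108859356, plus strand). It was at 61.61, 58.0 and 57.97 CPM and at 18.59, 38.8 and 35.7 CPM, a 1.91-fold fall (log2 -0.93 ± 0.25 SE, adjusted p = 0.0303). In Edem1 shUHRF1 replicate 1 was the lowest library, unlike in the 14 listed ATF4 targets, where it was the highest of its group. The call of Sel1l was lost without shControl replicate 3 or shUHRF1 replicate 3 (adjusted p = 0.0732 and 0.0566). That of Edem1 was lost without any 1 of the shControl libraries or without shUHRF1 replicate 3 (adjusted p = 0.0857, 0.0629, 0.0806 and 0.0615).

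Syvn1, the HRD1 ligase itself, was at 40.3, 25.7 and 41.76 CPM in shControl and at 30.89, 22.79 and 19.91 CPM in shUHRF1. Its groups overlapped through shControl replicate 2 (log2 -0.55, adjusted p = 0.121), and it was called lower without that library (log2 -0.76, adjusted p = 0.0427) and without the low-count filter (adjusted p = 0.0389). Herpud1, a scaffold of the HRD1 complex that carries the CARE motif shown above, was at 77.82, 72.12 and 79.45 CPM and at 100.8, 54.05 and 78.56 CPM, with the shUHRF1 libraries on both sides of shControl.

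Per kilobase of exon, the scale on which genes can be set beside each other, the order of the members' levels was led by Canx, Asns, Atf4 and Calr in both groups. Their levels were 226, 184, 171 and 136 CPM per kilobase in shControl and 200, 186, 139 and 108 in shUHRF1. Slc7a5 went from 95.2 to 33.3 CPM per kilobase and from rank 5 to rank 9 of the 43 members. Atf5 went from 76.2 to 19.2 and from rank 6 to rank 19. Hspa5 was at 71.4 and 73.6 CPM per kilobase. Slc7a11 was the lowest in both groups, at 0.445 and 0.676.

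Set against each other within each library, the ATF4 arm was lower relative to the ATF6 and XBP1 arm in shUHRF1 on average, but the groups overlapped. Each arm was summarised as the mean of log2(CPM + 1) over its listed genes. Atf5, a known ATF4 target, was listed as a transcription factor and so was in neither arm. Herpud1, which carries the CARE motif, was in the ATF6 and XBP1 arm. The ATF4 targets gave 6.17, 6.01 and 6.32 in shControl replicates 1 to 3 and 6.29, 5.12 and 5.89 in shUHRF1. The ATF6 and XBP1 targets gave 6.22, 6.29 and 6.26 and 6.14, 6.16 and 6.24. In the ATF6 and XBP1 arm the libraries thus differed by little, while in the ATF4 arm shUHRF1 replicate 2 stood low and replicate 1 lay inside the shControl range. The difference between the arms, ATF4 minus ATF6 and XBP1, was -0.05, -0.28 and 0.06 in shControl and 0.14, -1.03 and -0.36 in shUHRF1. Its mean was -0.09 ± 0.18 and -0.42 ± 0.59 (SD, n = 3 in each group), a shift of -0.33 that is smaller than the spread between the shUHRF1 libraries. Between libraries of the same number the shift was 0.19, -0.75 and -0.42, so the first pair went the other way. Without shUHRF1 replicate 2 the shift was -0.02, and without shUHRF1 replicate 1 it was -0.61. No test was made of these summed values. On the linear scale, where the most abundant genes weigh most, the ATF4 targets summed to 80.9%, 68.6% and 91.5% of the ATF6 and XBP1 targets in shControl and to 79.1%, 47.9% and 63.1% in shUHRF1.

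**Figure D4:**
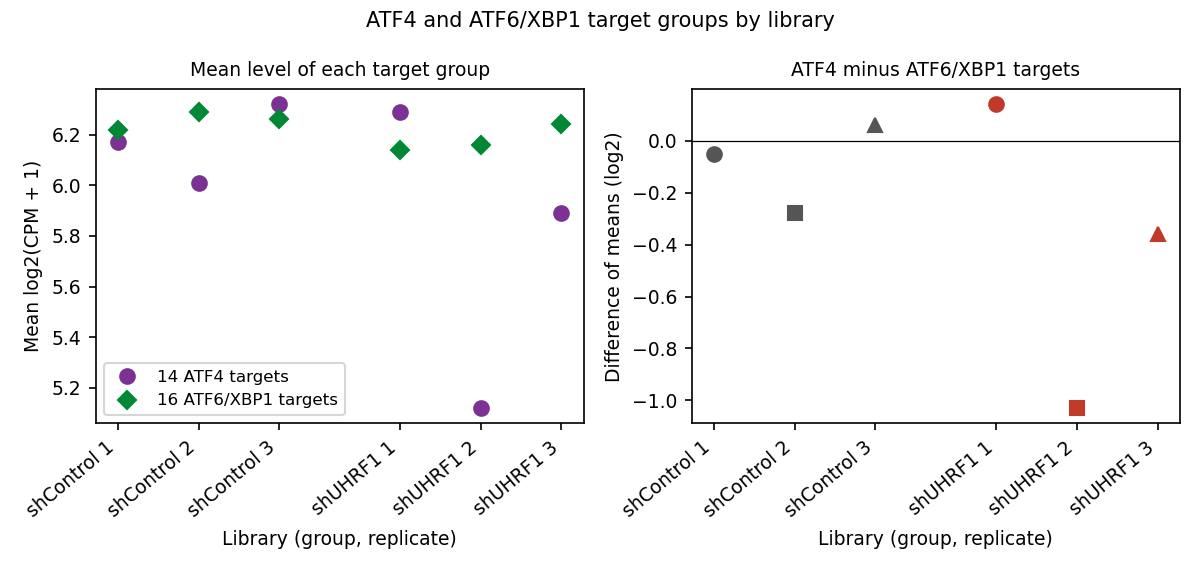
Mean log2(CPM + 1) of the 14 ATF4 targets and of the 16 ATF6 and XBP1 targets, and the difference between them, in each library, with 1 point per library and target group on the left and 1 point per library on the right. The differences run from -0.28 to 0.06 in shControl and from -1.03 to 0.14 in shUHRF1.

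Other genes of these pathways were listed by function. Over 9 lists with 125 genes, of which 122 were tested, 4 (3.28%) were called higher and 16 (13.1%) lower, with a median log2 fold change of -0.03. Over all tested genes 11.6% were called higher and 12.4% lower, and 9.29% and 19.9% of those whose mean reached 16 CPM. Of the 21 tested ATF4-linked genes outside the module 2 were higher and 0 lower. Sesn3, a relative of Sesn2, rose from 17.07 to 52.78 CPM (log2 1.63 ± 0.21 SE, adjusted p = 0.00203), and Vldlr, a lipoprotein and reelin receptor, from 143.1 to 268.9 CPM (log2 0.91 ± 0.15 SE, adjusted p = 0.00584). With the replicate block this list had 4 higher and 1 lower, and DESeq2 gave 2 and 1. Among the 16 cytosolic aminoacyl-tRNA synthetases 0 were higher and 2 lower, with a median of 0.12. Wars, for tryptophan, fell from 248.2 to 106.6 CPM (log2 -1.22 ± 0.12 SE, adjusted p = 0.00102) and Hars, for histidine, from 233.5 to 161.4 CPM (log2 -0.53 ± 0.10 SE, adjusted p = 0.00808), with 8.0% of its exonic bases overlapping Hars2 on the opposite strand. Of 9 further eIF2 kinase, eIF2 and eIF2B genes edgeR and DESeq2 called 0 in either direction, with 1 higher and 1 lower at an unadjusted p below 0.05. Eif2b1, Eif2ak1 (HRI) and Eif2s2 had the smallest p values among them, with log2 fold changes of -0.31, 0.35 and -0.35.

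Further genes of the ER were compared with the same background, in which lower calls outnumbered higher ones among genes whose mean reached 16 CPM. That background was 11.6% higher and 12.4% lower over all tested genes. It was 9.29% and 19.9% for those whose mean reached 16 CPM. Among 13 tested genes of ER-associated degradation 0 were higher and 4 (30.8%) lower, with a median of -0.01. Derl1, which forms a channel for retrotranslocation, fell from 77.54 to 53.37 CPM, Selenos from 36.42 to 24.93 CPM, and the ubiquitin-conjugating enzyme gene Ube2g2 from 53.12 to 35.25 CPM (adjusted p = 0.0114, 0.0176 and 0.0349). The fourth was Faf2, named after its value was seen. Among 16 genes of the ER translocon and of signal peptide handling 0 were higher and 5 (31.2%) lower, with a median of -0.26. Srpr, the receptor of the signal recognition particle, fell from 32.08 to 16.31 CPM (log2 -0.98 ± 0.14 SE, adjusted p = 0.00308). The signal peptidase genes Sec11a and Spcs1 fell from 55.99 to 32.88 CPM and from 58.17 to 41.5 CPM (adjusted p = 0.00401 and 0.0129), and 16.3% of the exonic bases of Spcs1 overlap Glt8d1 on the opposite strand. The others were Ssr1 and Ssr3, named after their values were seen. Of 17 further ER folding genes 0 were higher and 1 lower, Fkbp14 (23.3 to 13.21 CPM, adjusted p = 0.0336). With the replicate block and with DESeq2 2 of them were lower. Among 7 further sensors and site proteases 1 was higher and 1 lower. Mbtps2, the site protease that releases ATF6, was counted at 27.35 and 78.05 CPM (log2 1.51 ± 0.16 SE, adjusted p = 0.00116), a value that is uncertain because 28.4% of its exonic bases are shared with Yy2 on the same strand. Creb3l1, an ER-bound factor related to ATF6, fell from 25.56 to 15.1 CPM (adjusted p = 0.0461).

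Stress responses of other compartments were taken for comparison. The background was again 11.6% higher and 12.4% lower over all tested genes. For those whose mean reached 16 CPM it was 9.29% and 19.9%. Among 14 genes of the cytosolic heat shock response 1 (7.14%) was higher and 2 (14.3%) lower, with a median of -0.16. Hsp90aa1, the inducible cytosolic HSP90, fell from 300.2 to 118.9 CPM (log2 -1.34 ± 0.16 SE, adjusted p = 0.00177) and Hsf1, the factor that drives this response, from 19.73 to 12.71 CPM (adjusted p = 0.0484). St13, an HSP70 cofactor, rose from 314.6 to 413.0 CPM (adjusted p = 0.0457). Among 10 mitochondrial chaperones and proteases 0 were higher and 1 lower, Trap1, the mitochondrial HSP90, from 93.84 to 37.09 CPM (log2 -1.34 ± 0.14 SE, adjusted p = 0.00102). For the lists with 0 genes called higher, 0 or 1 were higher at an unadjusted p below 0.05, and DESeq2 called 0 higher in each.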

How the data were processed

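Per the submitters' processing notes, the authors used FastQC, STAR, HTSeq and DESeq2 with the mm10 build. No version, annotation release or strand setting is given in the sources used here. The authors deposited whole-number read counts per gene and library. Summary lines that name no gene (reads outside annotated genes made up 8.43% to 17.2% of a library's entries) stayed out of library sizes and tests. Symbols, coordinates and exon overlaps came from GENCODE M21 on GRCm38, which held 47224 of the 47643 identifiers. Promoter windows came from RefSeq (GRCm38.p6), with coordinates counted from 1.

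Differential expression was computed from the deposited counts with edgeR 4.0.16 in R 4.3.3: filterByExpr at default settings, TMM factors and the two-sided quasi-likelihood F test of shUHRF1 against shControl without a block, with Benjamini-Hochberg adjustment over all tested genes. Uhrf1 did not pass the filter and was kept in the fit for its own value. Standard errors came from the F statistic. The fit was tested on simulated data. No pair of libraries within a group agreed within counting error (pairs across groups were not compared), so all 6 were used.

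The alternatives were DESeq2 1.42.0, voom in limma 3.58.1, RLE and upper-quartile factors, other low-count filters, a replicate block, the libraries numbered 1 and 3 alone, a minimum fold of 1.5, and each library left out in turn. After subtraction of the group means, same-numbered libraries of the 2 groups correlated at 0.33, 0.36 and 0.44, and the other pairs at -0.27 to -0.04. The numbers were therefore taken to pair the libraries, from the data alone, because what a number shares is not stated in the labels. The main tests, intervals and calls nevertheless left this pairing out, as did the fits with libraries left out. With the replicate block 2380 genes were called higher and 2440 lower over all tested genes, with 3 members higher and 8 lower. The members, the further lists and the alternatives were chosen with earlier results of these data known. The rule for names took all 43 members, Uhrf1, and up to 3 genes per further list with the smallest unadjusted p.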

Additional observations from a re-analysis of the deposited data

How the results depend on the processing

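With 3 libraries in each group, differences below about the intervals given could not be resolved, and members near the threshold gained or lost their calls as libraries were left out. Over all tested genes the number called ranged from 1768 to 3888 when libraries were left out in turn. Under the same fits the members called higher ranged from 0 to 3, beside 3 with all libraries, and those called lower from 2 to 9, beside 7. Leaving out a library also leaves fewer samples to estimate the spread. DESeq2, limma-voom, RLE and upper-quartile factors, the stricter filter and the replicate block gave 2 or 3 members higher and 7 or 8 lower, as did the fit without the low-count filter, and each of these but the last held all 10 calls. Requiring at least a 1.5-fold change left 2 higher and 6 lower. The replicate block added a call for Cebpb and changed no other call of a member. With upper-quartile factors the median over all tested genes was 0.142 on the log2 scale, beside 0.017, and 2512 genes were called higher and 1378 lower. The 10 called members kept their direction in all 140 alternative fits and their call in 110, and Atf5 and Slc7a5 were called in every one of theirs.

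Among the 33 members not called, 8 of 462 alternative fits gave a call and 27 a change of direction, all of them in members with a log2 fold change near 0 or a wide interval. Without the low-count filter the log2 fold change was -0.01 for Ppp1r15b, -0.02 for Asns, -0.01 for Chac1 and -0.01 for Herpud1. With limma-voom it was -0.25 for Chac1 and -0.01 for Herpud1, and with the replicate block -0.25 and -0.02. Upper-quartile factors gave 0.04 for Hyou1 and 0.01 for Manf, and the libraries numbered 1 and 3 alone gave 0 for Manf. When libraries were left out in turn the log2 fold change ran from -0.02 to 0.10 for Eif2s1, from -0.07 to 0.08 for Ppp1r15b, from -0.07 to 0.08 for Asns, from -0.70 to 0.40 for Chac1, from -0.23 to 0.77 for Sesn2, from -0.12 to 0.14 for Hspa5, from -0.05 to 0.14 for Pdia6 and from -0.21 to 0.20 for Herpud1. The cause of these changes was not tested. The difference between the ATF4 arm and the ATF6 and XBP1 arm ran from -0.61 to -0.02 with libraries left out in turn and from -0.42 to -0.28 under the other settings.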
